A study of Mus musculus with 66 samples.

Results

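Between the second and the third week after cardiotoxin injury of mouse gastrocnemius, a calf muscle, 10 arrays compared 2 windows: 6 arrays of muscle taken 12, 13 or 14 d after injection and 4 of muscle taken 16 or 20 d after injection, with 2 arrays a day. The arrays were taken by their day labels, but the comparison was chosen with earlier results of these data known. They came from 66 arrays in all, of which 54 were of the same array version, called Av2 in the labels. No uninjured muscle entered the comparison. Cardiotoxin, from snake venom, kills the fibres of a muscle while its satellite cells survive and form new ones. The labels of these 10 arrays give the tissue and the day and nothing on dose, strain, sex or age; elsewhere in the series they give 100 ul of 10 uM toxin for 10 arrays and an age of 8 weeks for the untreated mice. Whether the 2 arrays of a day came from separate animals is not stated, so the p-values measure only the spread between these arrays. The untreated muscle (2 arrays) and the muscle of 30 and 40 d (4 arrays) of the same version are given below as levels for reference, in no test.

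As background, a muscle destroyed by venom is first filled with neutrophils and then with macrophages, which clear the dead fibres with lysosomal and secreted enzymes, while fibroblasts lay down a provisional matrix. Satellite cells proliferate, leave the cell cycle and fuse into new fibres that carry embryonic and perinatal myosins before the adult isoforms. As the fibres mature, the infiltrate leaves, the matrix is remodelled and the enzymes of glycogen use and mitochondrial oxidation are built up.

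The 10 arrays were of like quality in most measures, with 78.2% to 82.4% of the probe sets of an array above the intensity floor of 64.7, below which values were set to the floor. A probe set is a group of short probes for 1 transcript, and its value is an intensity on a linear scale that the authors had brought to a common mean. Arrays of the same day correlated at 0.942 to 0.96 over all probe sets, arrays of the same window but different days at 0.939 to 0.959, and arrays of different windows at 0.909 to 0.946. The first principal component held 29.8% of the variance and placed the 4 later arrays between 27.7 and 33.3, the 14 d arrays at -3.9 and -10.9 and the 12 and 13 d arrays between -20.1 and -29.8. On 4 arrays, 12 d replicate 2, 14 d replicate 2, 16 d replicate 1 and 20 d replicate 2, the ratio of the 3' to the 5' control probe set of Gapdh was 0.0657 to 0.162, against 0.41 to 0.7 on the other 6, while the same ratio for b-actin lay between 0.597 and 1.04 on all 10. Both windows held 2 such arrays. Without them 50 probe sets passed the test, over 4 against 2 arrays, and all 1051 probe sets described next kept their direction. The arrays left had helped to choose those 1051, so the kept direction is no independent check. It was fixed in advance for the 875 whose intensities do not overlap between the windows.

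Of 10441 probe sets tested with limma, 1051 (10.1%) differed between the windows at an adjusted p below 0.05, 390 (3.74%) higher and 661 (6.33%) lower at 16 and 20 d. Log2 differences are given throughout as the later minus the earlier window. Of the probe sets called, 326 changed by more than 2-fold, and in 875 the intensities of the 4 later arrays did not overlap those of the 6 earlier ones. Taken as genes, each by its brightest probe set, 7380 were tested and 826 (11.2%) passed: 304 (4.12%) rose and 522 (7.07%) fell. Other probe sets were tested for 188 of the 826: in 35 genes they all passed in the same direction, and in 56 at least 1 had the opposite sign. None of these other probe sets passed in the opposite direction. These percentages of all genes are the background for the counts of gene lists below. The lists share members, so their counts are not independent of each other. Among all genes the arrays of the windows did not overlap in 987 (13.4%), with 407 (5.51%) higher and 580 (7.86%) lower later. The median difference of all genes was 0.0419. When a change of at least 1.5-fold was required by the test itself, 71 probe sets passed, 5 of them higher. Of 139 genes named by rule that passed, 97 still did without both 12 d arrays, 85 without 13 d, 134 without 14 d, 98 without 16 d and 75 without 20 d.

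**Figure D1:**
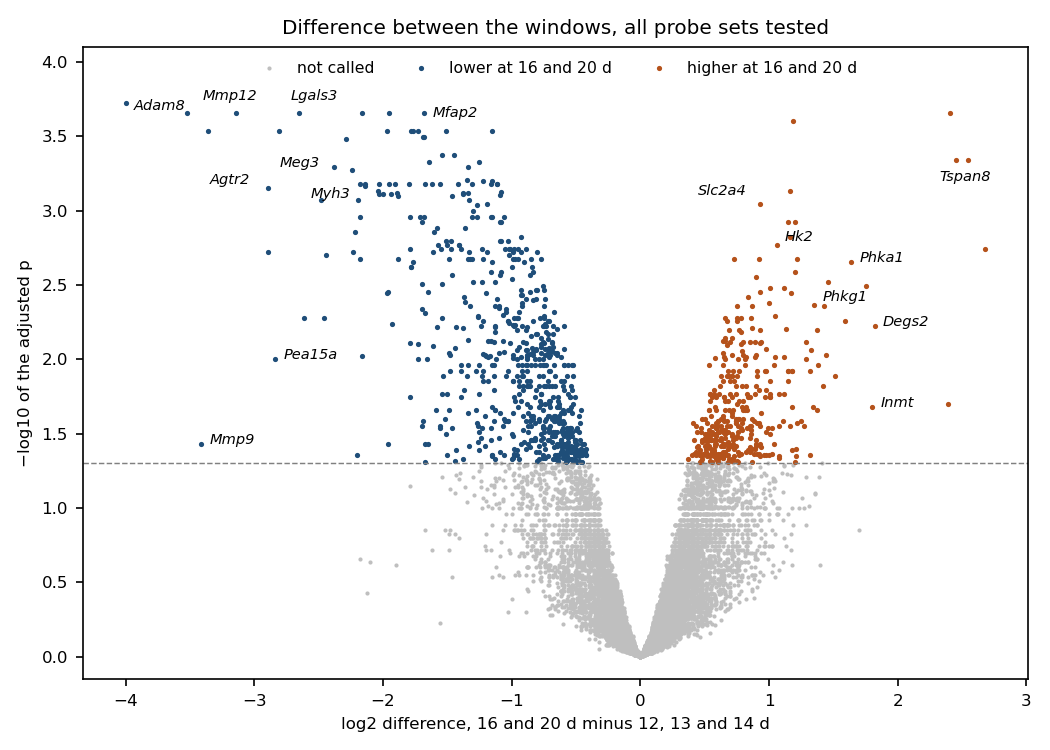
Log2 difference between the windows (16 and 20 d minus 12, 13 and 14 d, horizontal axis) and −log10 of the limma adjusted p (vertical axis) of each of the 10441 probe sets tested; the dashed line marks an adjusted p of 0.05. The 661 probe sets that passed on the left outnumber the 390 on the right, and Adam8, Mmp12 and Lgals3 lie farthest to the left among the genes with the lowest p.

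On the median, the genes that fell were above untreated muscle at 12 to 14 d and those that rose were below it, and in both sets the later window stood closer to it. The median of the 522 genes that fell was 1.5 (log2) above the 2 untreated arrays at 12 to 14 d and 0.55 above them at 16 and 20 d, and at 30 and 40 d it was 0.45. For the 304 genes that rose the median was -0.91 at 12 to 14 d, -0.22 at 16 and 20 d and -0.21 at 30 and 40 d. Later levels lay between the earlier and the untreated level for 452 of the 522 (86.6%) and for 221 of the 304 (72.7%), against 4250 of all 7380 genes (57.6%). The genes were chosen on these same earlier and later arrays, so the shares are a description with no test.

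**Figure D2:**
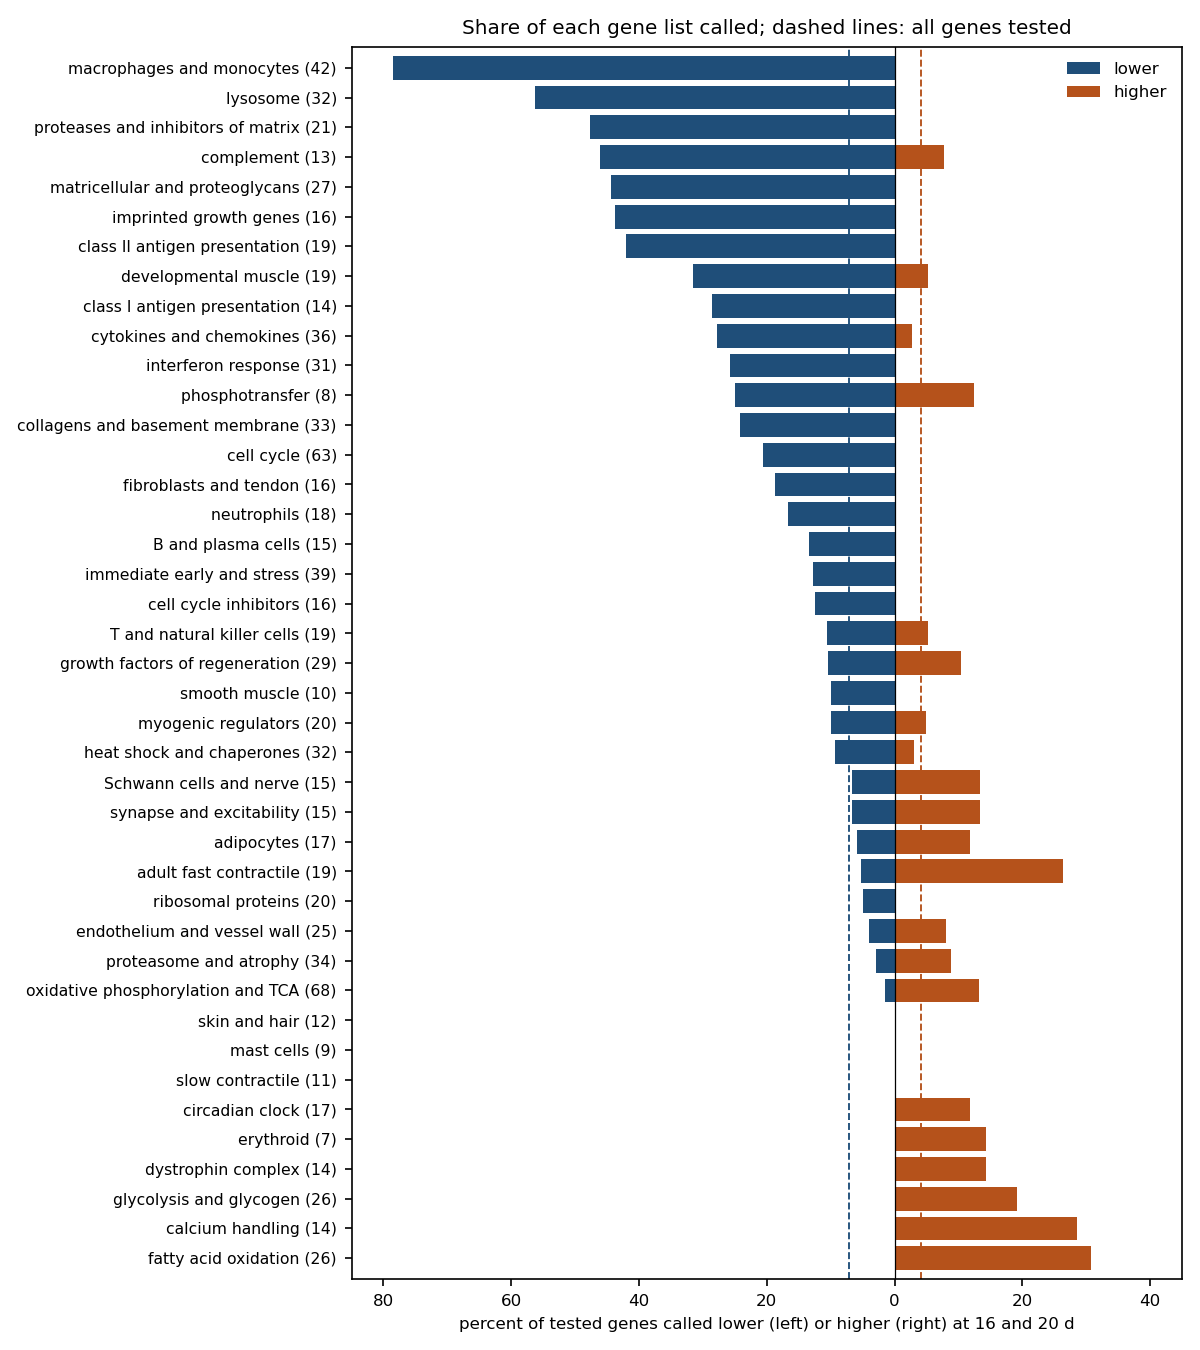
Percent of the tested genes of each of 41 lists (number tested in parentheses) that were called lower (left) or higher (right) at 16 and 20 d; dashed lines mark the 7.07% and 4.12% of all genes. Macrophage and monocyte genes stand at the top, with 33 of 42 lower, and fatty acid oxidation at the bottom, with 8 of 26 higher.

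Macrophage genes made up the clearest group. Of the 42 tested genes of the macrophage and monocyte list, 33 fell (7.07% of all genes did) and the other 9 did not pass; the median difference of the 42 was -1.35. The 33 fell by 0.72 to 3.14 on the log2 scale, and 29 of them passed with any of the 10 arrays left out. They had stood a median of 2.79 above untreated muscle at 12 to 14 d and stood 1.12 above it at 16 and 20 d, all 33 still above the untreated level. These genes fell together, and PU.1, the transcription factor of the myeloid lineage that Spi1 encodes, binds a purine-rich core. The promoter sequences of 3 of the 33, all 3 of which hold the motif in capitals, are shown first. Each is the 250 bases before the annotated start in RefSeq on GRCm38.p6, on the gene's own strand: Mmp12 at chr9:7344147-7344396 on the plus strand, Clec4d at chr6:123261857-123262106 on the plus strand and Cd68 at chr11:69666171-69666420 on the minus strand. Capitals mark GAGGAA, or TTCCTC where it lies on the other strand.
Mmp12: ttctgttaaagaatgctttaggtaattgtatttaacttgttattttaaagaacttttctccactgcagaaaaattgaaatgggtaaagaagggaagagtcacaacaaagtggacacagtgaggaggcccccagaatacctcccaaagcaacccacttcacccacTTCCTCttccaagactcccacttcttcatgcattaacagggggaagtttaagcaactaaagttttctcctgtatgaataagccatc
Clec4d: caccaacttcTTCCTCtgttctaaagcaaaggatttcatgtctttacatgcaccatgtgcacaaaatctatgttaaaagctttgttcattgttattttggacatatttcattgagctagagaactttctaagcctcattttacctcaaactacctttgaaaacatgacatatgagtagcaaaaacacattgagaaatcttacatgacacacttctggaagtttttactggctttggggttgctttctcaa
Cd68: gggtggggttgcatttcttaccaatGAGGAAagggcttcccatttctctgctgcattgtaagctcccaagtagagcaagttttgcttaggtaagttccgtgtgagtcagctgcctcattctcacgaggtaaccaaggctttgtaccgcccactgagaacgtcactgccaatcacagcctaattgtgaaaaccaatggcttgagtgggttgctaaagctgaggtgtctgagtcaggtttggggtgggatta
Of the 33 macrophage genes that fell, 24 had a window in the table, and 11 of those (45.8%) held GAGGAA on either strand, against 6231 of all 27025 windows (23.1%). The windows of Lgals3, Lyz2 and Cyba, for example, held none. Another short motif, CANNTG, was also more frequent, in 21 of the 24 (87.5%) against 66.2% of all windows, so the higher share was not particular to GAGGAA. Of 6 developmental muscle genes that fell, 2 (33.3%) held GAGGAA. A match is a run of letters and not a binding site, and Mmp12 has 2 windows in the table, of which the first is shown.

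Mmp12, the macrophage elastase, had the largest fall of the list. Its intensity was 3929 at the lowest, 7485 at the median and 8452 at the highest of the 6 earlier arrays, and 564 and 1292 at 16 d and 591 and 696 at 20 d. That is an 8.82-fold lower level (log2 difference -3.14, SE 0.27, adjusted p = 0.00022), and the second probe set of the gene fell by 2.89 (SE 0.41, adjusted p = 0.0019). Every later array was far below every earlier array, and the later mean of 786 was still above the 122 of untreated muscle. At 30 and 40 d the mean was 1146 (SD 299), no lower than at 16 and 20 d. Lgals3, the lectin galectin-3, stood at 2074, 4075 and 4573 (lowest, median and highest) and then at 439.5, 682, 581 and 649, a 6.27-fold fall (-2.65, SE 0.23, adjusted p = 0.00022). Clec4d, a C-type lectin receptor of myeloid cells, went from 164, 350.7 and 447 to the floor on 3 of the later arrays and 70.4 on the other, so that its 4.54-fold fall (-2.18, SE 0.25, adjusted p = 0.00066) is at least that large.

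The markers that define the cells moved the same way. Cd68, a glycoprotein of macrophage lysosomes, was at 3720, 4891 and 5976 in the earlier arrays and at 1314, 1632, 1495 and 1203 later, 3.41-fold lower (-1.77, SE 0.17, adjusted p = 0.00029). Csf1r, the receptor of the growth factor of macrophages, was at 3765, 5557 and 7040 and then at 2269, 2733, 1772 and 1964 (-1.32, SE 0.19, adjusted p = 0.0021). A weaker probe set of it differed by 0.24 (SE 0.3, adjusted p = 0.64). Lyz2, the lysozyme, was at 6699, 10210 and 12070 and then at 3405, 4881, 3042 and 2801 (-1.47, SE 0.2, adjusted p = 0.0016). On the brightest probe sets of these 3 the windows did not overlap. Adgre1, which encodes the surface protein F4/80, fell by 1.36 (SE 0.22, adjusted p = 0.0041), and Spi1 itself by 1.31 (SE 0.15, adjusted p = 0.00066). In whole muscle, fewer cells of a type and less RNA per cell cannot be told apart.

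Among the 9 macrophage genes that did not pass, Mrc1, the mannose receptor, differed by -0.50 (adjusted p = 0.19), Msr1, a scavenger receptor, by -0.77 (0.15) and Arg1, the arginase, by -0.87 (0.36). Apoe, which carries lipid out of cells, differed by -0.01, Ccl6 by -0.08 and Cx3cr1, the fractalkine receptor, by 0.08. The summed intensity of the list ran from 114530 to 168740 on the earlier arrays and from 52311 to 78055 on the later ones. Array by array, the mean level of the list, as log2 difference from the mean of the 10 arrays, was 0.90 and 0.81 at 13 d, 0.37 and 0.61 at 12 d, and 0.16 and 0.40 at 14 d, then -0.85 and -0.57 at 16 d and -0.92 and -0.90 at 20 d.

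**Figure D3:**
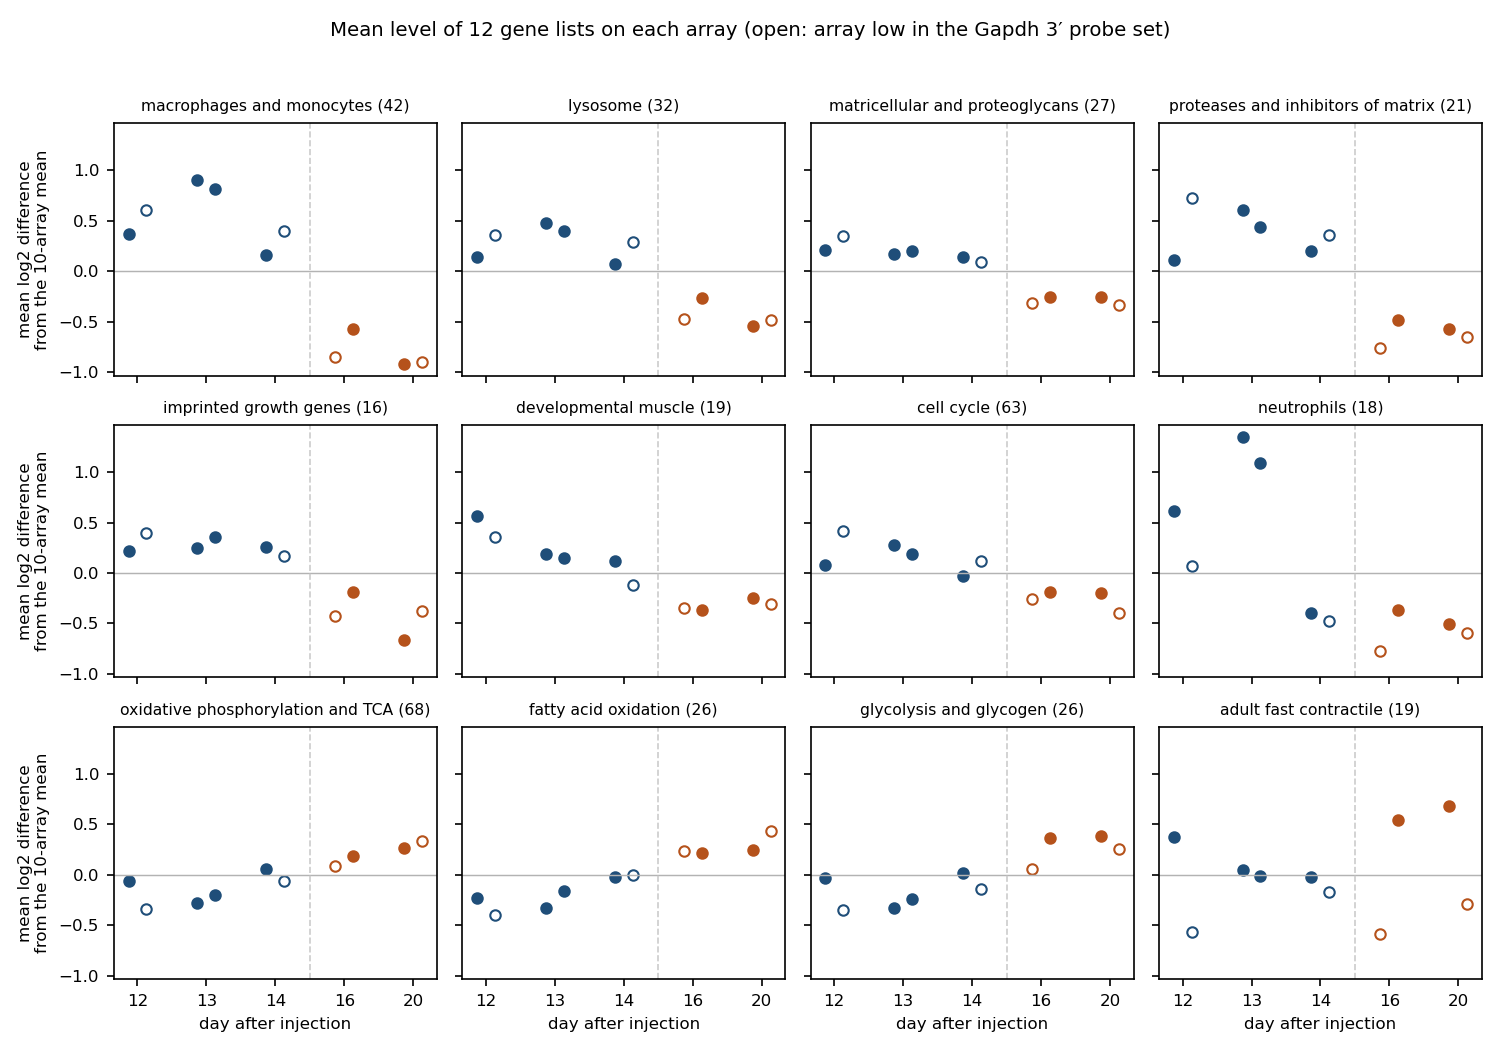
Mean log2 difference of the genes of 12 lists from their mean over the 10 arrays, for each array by day after injection; open points are the 4 arrays low in the Gapdh 3' probe set, and the dashed line parts the windows. The macrophage list falls from between 0.16 and 0.90 to between -0.92 and -0.57 with no overlap, while the lists of fatty acid oxidation and glycolysis lie higher on every later array than on any earlier one.

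Many lysosomal genes fell as well, some of them members of other lists too, such as Ctss, which is also in the macrophage and class II lists. Of 32 tested, 18 fell and the other 14 did not pass (median -0.68); 13 passed with any array left out, and without both 20 d arrays 9 passed. Ctss, the cathepsin that trims the invariant chain of class II molecules, was among the brightest genes of the earlier window at 15370, 19160 and 22990, and stood at 4144, 6852, 5010 and 4287 later, 3.85-fold lower (-1.95, SE 0.17, adjusted p = 0.00022). Ctsz fell by 1.42 (SE 0.16, adjusted p = 0.00066), Man2b1, a mannosidase, by 1.39 (adjusted p = 0.0018), Lgmn, the legumain protease, by 1.38 (SE 0.17, adjusted p = 0.00077) and Grn, the progranulin precursor, by 1.31 (adjusted p = 0.0011), but second probe sets of Man2b1 and Grn differed by 0.00 (0.99) and 0.05 (0.96). Ctsd, the aspartic protease that is also abundant in other cells, differed by 0.01 (adjusted p = 0.98), and Gaa, which degrades glycogen in lysosomes, by 0.07 (0.84). Complement genes did not all fall. The 3 chains of C1q, which macrophages make, fell by 1.34 (C1qc, SE 0.16, adjusted p = 0.00076), 1.33 (C1qb, SE 0.16, adjusted p = 0.00085) and 1.05 (C1qa, adjusted p = 0.0018), and C3ar1, the receptor of the C3a fragment, by 1.95 (SE 0.22, adjusted p = 0.00066). The other probe set of C1qb, at 1072 to 1506 in the earlier window, differed by 0.20 (SE 0.14, adjusted p = 0.39). On their brightest probe sets C1ra, C2, Cfb and Serping1, the C1 inhibitor, differed by -0.29 to -0.09 and did not pass. Another of C1ra fell by 0.83 (SE 0.16, adjusted p = 0.0093) and another of Cfb rose by 1.25 (SE 0.3, adjusted p = 0.026). By brightest probe set, 6 of the 13 tested genes of the list fell and 1, the inhibitor Cd55, rose by 0.64 (adjusted p = 0.046). The call of Cd55 was lost without 12 d replicate 1 or any 1 array of 13, 16 or 20 d, with an adjusted p of 0.063 to 0.11.

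Some genes of antigen presentation fell. Of 19 class II genes 8 fell and the other 11 did not pass (median -0.46), and all 8 passed with any array left out. Among the chains that present peptide, H2-Eb1 fell by 0.93 (adjusted p = 0.0015), H2-Ab1 by 0.75 (0.006) and H2-Aa by 0.74 (0.0058), and H2-DMa, which loads them, by 1.00 (SE 0.15, adjusted p = 0.0029; a weaker probe set 0.20, adjusted p = 0.72). Cd74, the invariant chain, was at 16050, 19290 and 24540 and then at 12584, 16388, 15911 and 11726, a difference of -0.46 that did not pass (SE 0.16, adjusted p = 0.083), and the windows overlapped. Ciita, the activator of the class II genes, differed by 0.11 (0.67). Of 14 class I genes 4 fell, H2-D1, H2-K1, Tap1 and Psmb8, but a single one of the 4 calls, that of Tap1 (-0.79, SE 0.16, adjusted p = 0.013; a probe set near the floor 0.20, adjusted p = 0.68), passed without 20 d replicate 1. On other probe sets H2-D1 fell by 1.03 (SE 0.18, adjusted p = 0.0055) and differed by -0.62 (SE 0.2, adjusted p = 0.077). Another probe set of H2-K1 fell by 0.56 (SE 0.15, adjusted p = 0.042), and a weaker one differed by 0.49 (SE 0.21, adjusted p = 0.17). B2m, the shared light chain, differed by 0.33 (0.44). Of 31 interferon response genes 8 fell (median -0.56), with 3 of them passing in every fit with an array left out: Irf8, a transcription factor of myeloid cells (-1.01, SE 0.14, adjusted p = 0.0018), Ifi204 (-0.98, SE 0.14, adjusted p = 0.0018; 2 probe sets of it near the floor 1.03 and 0.03, adjusted p = 0.066 and 0.97) and Lgals3bp (-0.76, adjusted p = 0.0077). Without 12 d replicate 1, 13 d replicate 2, 16 d replicate 1 or 20 d replicate 1, no more than these 3 of the 8 passed.

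Of 36 cytokine and chemokine genes 10 fell and 1 rose (median -0.59). Of these 11 calls 6 were kept with any array left out, and 7 passed without 13 d replicate 1, 13 d replicate 2, 16 d replicate 2 or 20 d replicate 1. Ccl2, the main ligand of the monocyte receptor Ccr2, was at 450.2, 579.5 and 817 and then at 169.7, 185, 199 and 166.5, 3.2-fold lower (-1.68, SE 0.17, adjusted p = 0.00032). Ccl8 fell by 1.44 (SE 0.27, adjusted p = 0.0084), Ccl9 by 1.14 (adjusted p = 0.0076) and Il1rn, the antagonist of the interleukin-1 receptor, by 2.48 (SE 0.31, adjusted p = 0.00085), from a median of 582 to between 83.9 and 173.9. The 1 gene that rose was Cxcl14, by 0.66 (adjusted p = 0.019; 0.055 without 20 d replicate 1). Tnf differed by 0.19 (0.84), Il10 by -0.17 (0.59) and Il1b by -0.87 (0.25).

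Genes of other blood cells gave a weaker picture. Of 18 neutrophil genes 3 fell, Mmp9, Chil3 and Itgal, and each of these calls was lost without any of at least 7 of the 10 arrays, 16 d replicate 1 and both 12 d arrays among them. For Mmp9, a gelatinase, the earlier arrays ran from the floor to 4570 and the later ones from the floor to 70.4, with overlap (-3.41, SE 0.89, adjusted p = 0.037; another probe set -0.77, adjusted p = 0.29); without any 1 of the 12, 13, 16 or 20 d arrays its adjusted p was 0.059 to 0.083. S100a8 and S100a9, which fill the cytoplasm of neutrophils, differed by -2.1 (SE 1.06, adjusted p = 0.23) and -1.9 (SE 0.98, adjusted p = 0.24), and their earlier values came mostly from 13 d, where S100a8 was at 4998 and 2658 against 147 and 95.3 at 14 d. Cd3e and Cd3d of the T cell receptor complex differed by -0.04 and 0.05 (adjusted p = 0.89 and 0.92), at intensities near the floor, and Cd79a and Cd79b of the B cell receptor by 0.44 and -0.31 (0.41 and 0.58). Of 19 T and natural killer cell genes 1 rose and 2 fell, among them Il7r, the interleukin-7 receptor (-2.03, SE 0.24, adjusted p = 0.00077). Klrk1, an activating receptor of natural killer cells, rose from 64.7 to 144 in the earlier to 166 to 283 in the later arrays (1.29, SE 0.24, adjusted p = 0.0077; a probe set near the floor 0.18, adjusted p = 0.7). Of 15 B and plasma cell genes Cd72 (-2.29, SE 0.23, adjusted p = 0.00033) and Blnk (-1.54, SE 0.34, adjusted p = 0.017) fell. Whether these 2 genes were expressed in B cells here was not tested; the defining B cell genes Cd79a, Cd79b and Ighm did not pass.

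The largest fall of a named gene was among the proteases of the matrix. Of 21 tested proteases and inhibitors 10 fell and the other 11 did not pass (median -0.62). Adam8, a membrane protease of leukocytes, was at 488, 1189 and 1701 in the earlier window, then the floor on 3 arrays and 66 on the fourth (-4.0, SE 0.28, adjusted p = 0.00019), at least 16-fold lower, and the gene was at the floor in untreated muscle as well. Plaur, the urokinase receptor, fell by 1.96 (SE 0.31, adjusted p = 0.0035), with 3 later arrays at the floor, and Timp1, an inhibitor of metalloproteases, by 1.27 (adjusted p = 0.00092). Mmp14, which activates Mmp2 at the cell surface, fell by 0.89 (adjusted p = 0.0087), while Mmp2 differed by -0.26 (0.72) and Timp2 by -0.24 (0.48).

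Of 27 genes of matricellular proteins, which sit in the matrix without building its fibres, and proteoglycans 12 fell (median -0.58), 8 of them with any array left out. Postn, periostin, was at 18860, 22670 and 24020 and then at 8835, 11470, 8167 and 9110, 2.38-fold lower (-1.25, SE 0.13, adjusted p = 0.00047) and still above the 1106 of untreated muscle. Tnc, tenascin C, fell from 1120, 1954 and 3232 to 771, 573, 513 and 565 (-1.67, SE 0.28, adjusted p = 0.0049; a weaker probe set -0.84, adjusted p = 0.18). Mfap2, a microfibril protein, fell from 4787, 5861 and 6369 to 1769, 1796, 1636 and 1937 (-1.68, SE 0.13, adjusted p = 0.00022). The windows did not overlap on these probe sets. Fn1, fibronectin, differed by -0.04 (0.94), Sparc by -0.12 (0.65) and Dcn, decorin, by 0.24 (0.39).

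Of 33 genes of collagens and the basement membrane 8 fell and the other 25 did not pass (median -0.33), with 4 calls kept whichever array was left out. These 4 were Col8a1 (-1.26, SE 0.22, adjusted p = 0.0052), Lox, which crosslinks collagen (-1.13, SE 0.2, adjusted p = 0.006; a weaker probe set -0.21, adjusted p = 0.83), Col5a2 (-0.86, SE 0.14, adjusted p = 0.0035) and Col6a3 (-0.73, SE 0.15, adjusted p = 0.011). The main fibrillar collagens did not pass on their brightest probe sets. Col1a1 was at 13480, 20840 and 31020 and then at 16120, 34171, 33883 and 24513 (0.35, SE 0.27, adjusted p = 0.44), and Col1a2 differed by -0.03 (0.92). For Col3a1 the brightest probe set differed by -0.21 (SE 0.14, adjusted p = 0.38) and another by -0.91 (SE 0.19, adjusted p = 0.013), so its probe sets disagree. Of basement membrane genes, Col4a1 differed by -0.15, Lamb1 by 0.00 and Nid1 by -0.09, none of which passed.

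Imprinted genes, which in some tissues are expressed from a single parental allele and many of which are high in growing tissue, included some of the largest falls. Of 16 tested imprinted genes 7 fell and the other 9 did not pass (median -0.26), and the 7 passed with any array left out. Meg3, a long non-coding RNA, was at 5814, 6277 and 8368 and then at 1553, 2053, 706 and 1223, 5.2-fold lower (-2.38, SE 0.26, adjusted p = 0.00051; its other probe set -1.58, SE 0.21, adjusted p = 0.0013). Dlk1, a membrane protein encoded at the same locus as Meg3 and expressed from the other allele, fell from 3724, 3990 and 5270 to 986, 1221, 1044 and 617, 4.47-fold (-2.16, SE 0.19, adjusted p = 0.00022). Plagl1 (-1.88, SE 0.27, adjusted p = 0.0021; another probe set -1.20, adjusted p = 0.089), Mest (-1.65, SE 0.26, adjusted p = 0.0035), Peg3 (-1.10, adjusted p = 0.0044; 2 other probe sets -0.93 and 0.10, adjusted p = 0.067 and 0.7), Gatm (-0.88, SE 0.17, adjusted p = 0.0087) and Cdkn1c (-0.56, SE 0.11, adjusted p = 0.011) fell too. Igf2, the fetal growth factor, differed by -0.20 (adjusted p = 0.5), Nnat by 0.28 (0.37) and Gnas by 0.19 (0.6). At 30 and 40 d Meg3 was at a mean of 705, below the later mean of 1384 and above the 133 of untreated muscle.

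Some cell cycle genes fell. Of 63 tested, 13 fell and the other 50 did not pass (median -0.38), and 8 of the 13 passed with any array left out. Top2a, the topoisomerase of dividing cells, was at 197, 215 and 308 and then at the floor on 3 arrays and 79.8 on the other (-1.78, SE 0.17, adjusted p = 0.00029), at least 3.44-fold lower. Kif11, a motor of the spindle, fell by 1.23 (adjusted p = 0.003), Prc1 by 1.28 (SE 0.26, adjusted p = 0.012) and Ccnd1, cyclin D1, by 0.93 (adjusted p = 0.0034; a second probe set -0.21, adjusted p = 0.81). Mki67 did not pass on either probe set, with 0.31 (SE 0.17, adjusted p = 0.26) on the brighter and -0.89 (SE 0.28, adjusted p = 0.065) on the other, and Cdk1 differed by -1.49 (SE 0.62, adjusted p = 0.15) with earlier values from the floor to 506. Of the growth factor list, 3 of 29 genes fell and 3 rose. Tgfb1, which drives fibrosis and is made by macrophages among others, fell by 1.79 (SE 0.33, adjusted p = 0.0078), Ccn3 by 1.5 (SE 0.21, adjusted p = 0.0017) and Igfbp4, which binds insulin-like growth factors, by 1.22 (SE 0.13, adjusted p = 0.00063). The probe sets of Igfbp4 disagree: another well above the floor differed by 0.21 (SE 0.32, adjusted p = 0.71) and a faint one by 0.19 (0.64). All 3 rises, of Gdf11, Mstn and Vegfa, were lost without 16 d replicate 1, Gdf11 at an adjusted p of 0.11 and Vegfa at 0.06. Those of Gdf11 and Mstn were also lost without either 12 d array, 13 d replicate 2 or 16 d replicate 2 (adjusted p up to 0.1 and 0.076). Igf1 differed by 0.27 (0.21) on its brightest probe set and fell by 1.46 (SE 0.18, adjusted p = 0.0008) on the other, so no direction is given.

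Of 19 developmental muscle genes 6 fell, all 6 still above untreated muscle at 16 and 20 d, and 1 rose (median -0.52). Myh3, the embryonic myosin heavy chain, was at 1928, 3387 and 4488 and then at 558, 914, 694 and 781, 4.41-fold lower (-2.14, SE 0.25, adjusted p = 0.00068), against 163 in untreated muscle and 356 at 30 and 40 d. Its promoter is shown because an E-box, CANNTG, is the core that Myod1 and its relatives bind: the 250 bases before the start at chr11:67078050-67078299 on the plus strand (RefSeq, GRCm38.p6), with the E-box in capitals.
Myh3: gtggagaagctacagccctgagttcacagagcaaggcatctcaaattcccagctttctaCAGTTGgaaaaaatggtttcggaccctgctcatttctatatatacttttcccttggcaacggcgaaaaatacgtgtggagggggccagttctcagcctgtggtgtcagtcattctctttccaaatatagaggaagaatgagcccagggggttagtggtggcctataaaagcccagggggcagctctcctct
Of the developmental muscle genes that fell, all 6 had a window and 4 (66.7%) held an E-box on either strand, the same share as the 66.2% of all windows (17883 of 27025) to within 1 gene. Myl4, an embryonic myosin light chain, fell from 3722, 4848 and 6063 to 1406, 1778, 1306 and 1436 (-1.69, SE 0.17, adjusted p = 0.00032). Myh8, the perinatal myosin, fell from 997, 1412 and 1668 to 519, 494, 408 and 463 (-1.54, SE 0.16, adjusted p = 0.00042), though a second, weaker probe set of it differed by 0.24 (SE 0.43, adjusted p = 0.76). Tnnt2, the troponin T of heart and fetal muscle, fell by 1.08 (SE 0.14, adjusted p = 0.0012). Chrng, a subunit of the acetylcholine receptor of fetal muscle, fell by 1.03 (SE 0.25, adjusted p = 0.026; another probe set -0.46, adjusted p = 0.19) with overlapping windows, and its adjusted p was 0.05 to 0.071 without either 12 d array, either 13 d array, either 16 d array or 20 d replicate 1. Chrne, the adult subunit that replaces it, differed by -0.61 (0.2). Mybph, a myosin-binding protein, rose by 1.04 (adjusted p = 0.011).

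Of 20 regulators of muscle formation 3 passed the test, beside 11.2% of all genes. Myod1 was at 1644, 1862 and 2391 and then at 1666, 1869, 1832 and 1622 (-0.14, SE 0.13, adjusted p = 0.51), and the windows overlapped. Myog was at 1439, 1849 and 2209 and then at 1412, 1403, 1565 and 1443 (-0.32, SE 0.15, adjusted p = 0.19), and both windows lay above the 781 of untreated muscle. Myf5 differed by 0.48 (SE 0.22, adjusted p = 0.18) and Myf6 by 0.13 (SE 0.25, adjusted p = 0.78). Snai2, a repressor studied in satellite cells, was at 1219, 1431 and 1620 and then at 1156, 1022, 995 and 952, a small fall (-0.49, SE 0.12, adjusted p = 0.03) that was lost, at an adjusted p of 0.052 to 0.082, without 12 d replicate 2, either 13 d array, 16 d replicate 2 or either 20 d array. Id2, an inhibitor of E-box factors, fell by 0.88 (SE 0.17, adjusted p = 0.0097), and Id2, Snai2 and the riser Mef2d were the 3 of 20 genes of the list that passed. The call of Mef2d (0.42, SE 0.12, adjusted p = 0.043) was lost without any 1 of the 12, 13 and 20 d arrays or 16 d replicate 1, with an adjusted p up to 0.11.

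Adult contractile genes showed a mixed picture, with a wide spread between arrays of a window. Myh1 was at 21830, 33740 and 45990 and then at 24749, 33340, 32506 and 36707 (-0.03, SE 0.2, adjusted p = 0.95). Myh4, the fastest myosin, was at 12290, 18710 and 23460 and then at 5565, 36131, 35368 and 15561 (0.01, SE 0.45, adjusted p = 0.99), the low later values being those of the arrays low in the Gapdh 3' probe set. Its direction turned under quantile normalization (-0.23), so no direction is given. Myh7, the slow myosin, differed by 0.24 (SE 0.26, adjusted p = 0.58). Acta1, the skeletal actin, ran from 979 to 30178 over the 10 arrays, with 1178, 8082, 1587 and 979 on the 4 arrays low in the Gapdh 3' probe set. Of 19 fast contractile genes 5 rose and 1, the tropomyosin Tpm1 (-0.74, adjusted p = 0.0039), fell (median 0.15). Myom2, a protein of the M-band, rose from 2088, 2423 and 3149 to 4797, 4519, 3626 and 4199 (0.75, SE 0.16, adjusted p = 0.013), and its call and that of Tpm1 were the 2 kept whichever array was left out. None of the 11 slow contractile genes passed the limma test, and their median was 0.28. None reached an unadjusted p below 0.05 (0 of 11), against 2822 of all 10441 probe sets.

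Of 14 calcium handling genes 4 rose and the other 10 did not pass (median 0.43), and none of the 4 calls was kept in every limma fit with 1 array left out. Ryr1, the calcium release channel, was at 9468, 14810 and 20020 and then at 25368, 22306, 25579 and 23074 (0.76, SE 0.18, adjusted p = 0.025). Cacna1s, its voltage sensor, was at 4237, 4805 and 6477 and then at 9318, 7833, 7669 and 6880 (0.65, SE 0.15, adjusted p = 0.018). Neither gene's windows overlapped, yet without 16 d replicate 1 the adjusted p became 0.062 for Ryr1 and 0.058 for Cacna1s, and without 20 d replicate 1 it became 0.071 for Ryr1. Pvalb, the calcium buffer of fast fibres, rose by 0.86 (SE 0.21, adjusted p = 0.03), a call lost without any 1 of the 12, 13 and 20 d arrays or 16 d replicate 1 (adjusted p 0.057 to 0.084). Its mean was 12300 in the earlier window, 21590 in the later one and 13780 at 30 and 40 d. The other probe set of Pvalb differed by -1.56 (SE 1.69, adjusted p = 0.59). Sln, sarcolipin, which inhibits the calcium pump, rose by 0.83 (SE 0.18, adjusted p = 0.017) and had an adjusted p of 0.055 without 20 d replicate 1. Sgca, a sarcoglycan of the dystrophin complex, rose from 3321, 3909 and 5617 to 6459, 7096, 7750 and 6662 (0.79, SE 0.15, adjusted p = 0.0088). Dystrophin itself (Dmd) differed by -0.13 (0.8) and Utrn, its fetal relative, by 0.05 (0.89).

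Of 26 genes of glycolysis and glycogen 5 rose and the other 21 did not pass (median 0.43; 4.12% of all genes rose). The muscle subunits of phosphorylase kinase, the enzyme that switches on glycogen breakdown when calcium is released, rose together. Phka1, the regulatory alpha subunit, was at 1003, 1084 and 1998 and then at 4558, 5041, 3146 and 3468, 3.11-fold higher (1.64, SE 0.24, adjusted p = 0.0022). Phkg1, the catalytic gamma subunit, was at 973, 1208 and 2034 and then at 3861, 2993, 3242 and 3641, 2.56-fold higher (1.35, SE 0.22, adjusted p = 0.0043). The means of the later window, 4053 and 3434, came near the 4065 and 3508 of 30 and 40 d and lay below the 5165 and 5268 of untreated muscle. Their promoters are shown because the genes moved together and both hold E-boxes, in capitals: Phka1 at chrX:102644247-102644496 on the minus strand and Phkg1 at chr5:129879089-129879338 on the minus strand (250 bases before the start, RefSeq, GRCm38.p6).
Phka1: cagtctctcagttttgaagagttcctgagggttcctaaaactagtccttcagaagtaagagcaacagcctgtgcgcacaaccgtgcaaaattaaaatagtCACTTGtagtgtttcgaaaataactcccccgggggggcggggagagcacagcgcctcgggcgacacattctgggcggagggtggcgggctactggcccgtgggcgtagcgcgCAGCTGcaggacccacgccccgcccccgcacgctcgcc
Phkg1: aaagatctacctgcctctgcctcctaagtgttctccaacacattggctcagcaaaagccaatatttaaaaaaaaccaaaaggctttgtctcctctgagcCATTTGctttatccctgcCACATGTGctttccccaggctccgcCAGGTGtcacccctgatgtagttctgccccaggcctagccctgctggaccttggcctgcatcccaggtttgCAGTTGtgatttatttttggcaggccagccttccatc
Phka1 holds 2 matches to CANNTG and Phkg1 holds 5, of which a pair overlap; 3 of the 4 genes that rose and had a window (75.0%) held a match, against 66.2% of all windows.

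Slc2a4, the insulin-sensitive glucose transporter, was at 2564, 2893 and 3314 and then at 5351, 5336, 5572 and 5756. The spread was narrow in both windows (1.91-fold, 0.93, SE 0.12, adjusted p = 0.0009), and a probe set near the floor differed by 0.16 (adjusted p = 0.83). In the limma fit of all 54 arrays of the version, the window difference of Slc2a4 did not pass (adjusted p = 0.071). Hk2, the hexokinase of muscle, was at 2554, 3038 and 3425 and then at 5258, 5540 and, at 20 d, 7106 and 7428 (2.08-fold, 1.06, SE 0.15, adjusted p = 0.0017); the test of 20 against 16 d did not pass (20 d minus 16 d 0.43, adjusted p = 0.72). Both were below untreated muscle, at 8538 and 11510. Ugp2, which makes the donor for glycogen synthesis, rose by 0.55 (adjusted p = 0.035), a call lost without any 1 of the 12, 13 and 20 d arrays or 16 d replicate 1 (0.053 to 0.088). Other enzymes of the list did not pass: Pfkm differed by 0.28 (0.41), Aldoa by 0.17 (0.8), Pkm by 0.21 (0.71) and Pygm, the glycogen phosphorylase that phosphorylase kinase acts on, by 0.44 (0.27). Slc2a1, the glucose transporter of most other cells, differed by -0.83 (0.31) and Hk1 by 0.00 (0.99).

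Of 26 genes of fatty acid oxidation 8 rose and the other 18 did not pass (median 0.52). Acads, the dehydrogenase of short-chain fatty acids, was at 1885, 2213 and 2570 and then at 4823, 3979, 3540 and 4346 (0.92, SE 0.13, adjusted p = 0.0021). Its second probe set, at 1082 to 1682 in the earlier window, differed by 0.16 (SE 0.16, adjusted p = 0.56). Crat, carnitine acetyltransferase, rose by 0.82 (SE 0.17, adjusted p = 0.015) and Pdk4, the kinase that shuts pyruvate out of the cycle, by 0.72 (SE 0.15, adjusted p = 0.012). These 3 calls were the ones kept whichever array was left out, and without 12 d replicate 2, 16 d replicate 1 or 20 d replicate 1 they were the 3 that passed. Without both 20 d arrays, or both 13 d arrays, 1 of the 8 passed, and without both 14 d arrays 15 of the list did. Of 68 genes of the respiratory chain, ATP synthase and the citric acid cycle 9 rose and 1 fell (median 0.34). At an unadjusted p below 0.05 in limma 33 were higher and 1 lower. Of all 10441 probe sets 2822 reached that unadjusted level, in both directions together. Idh3a, a subunit of isocitrate dehydrogenase, was at 3316, 3787 and 4694 and then at 6687, 6322, 6635 and 7123 (0.77, SE 0.14, adjusted p = 0.0064). Ndufs4, of complex I, rose by 0.91 (SE 0.19, adjusted p = 0.013). These 2 calls were kept with any array left out, and without 12 d replicate 1 or 16 d replicate 1 they were the 2 that passed. The fall was of Cox6a1 (-0.71, adjusted p = 0.029, and 0.057 to 0.08 without any 1 of the 12, 13 and 16 d arrays), the form of that subunit used outside heart and muscle, while Cox6a2, the muscle form, differed by 0.32 (0.36). Ppargc1a, the coactivator that drives these genes, differed by 0.53 (0.38).

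Phosphotransfer genes went both ways. Adssl1, the adenylosuccinate synthase of muscle, rose by 0.89 (SE 0.17, adjusted p = 0.0077). Ckb, the creatine kinase of brain and of immature muscle, fell from 3623, 4400 and 5127 to 2419, 2688, 2429 and 2407 (-0.80, SE 0.13, adjusted p = 0.0034). Gatm, which starts creatine synthesis, fell by 0.88 (SE 0.17, adjusted p = 0.0087). Ckm, the adult muscle form, was at 6837, 10110 and 10550 and then at 8011, 15351, 16016 and 14227 and did not pass (0.47, adjusted p = 0.18), with overlap through 16 d replicate 1.

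**Figure D4:**
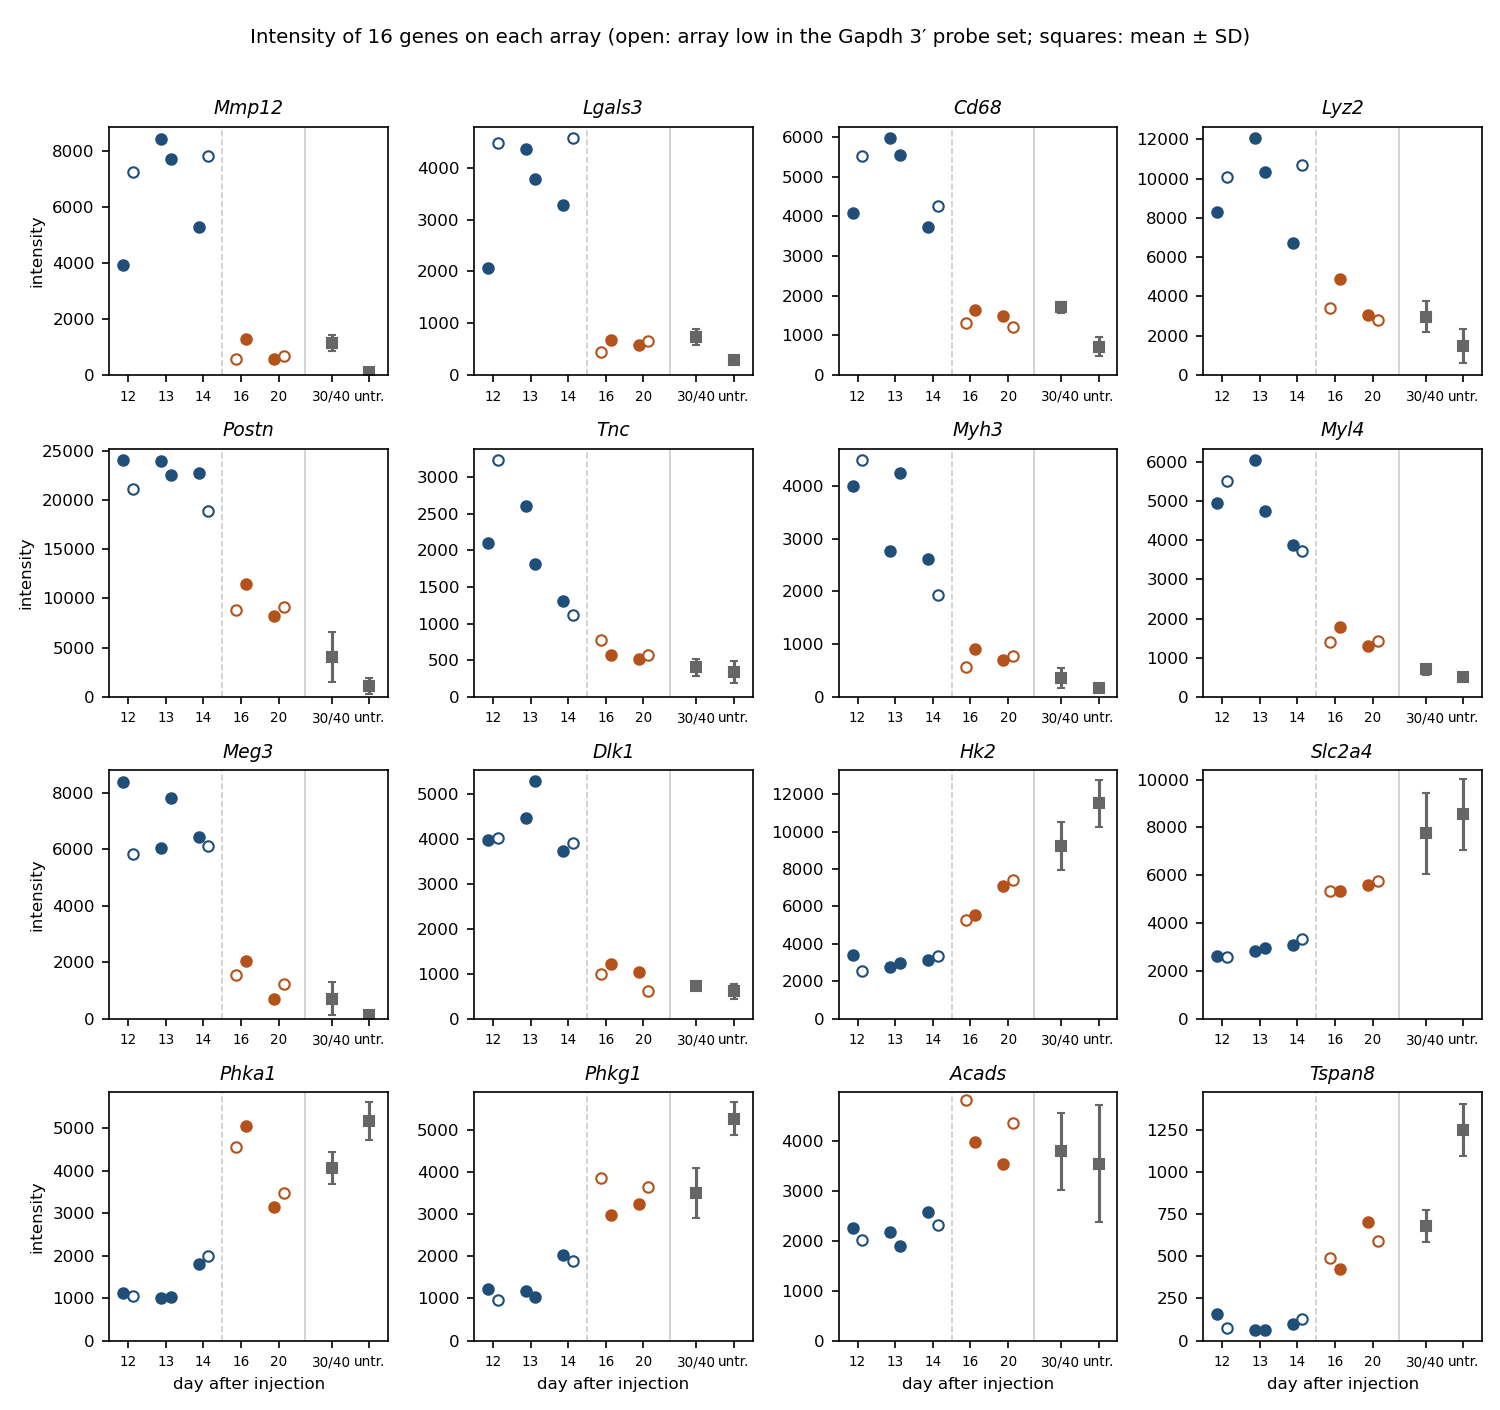
Intensity (linear axis from 0) of 16 genes on each array by day after injection; open points are arrays low in the Gapdh 3' probe set, and squares with bars give the mean ± SD of 30 and 40 d (n = 4) and of untreated muscle (n = 2). Mmp12, Lgals3, Cd68, Lyz2, Postn, Tnc, Myh3, Myl4, Meg3 and Dlk1 lie lower on all 4 later arrays than on any earlier array, and Hk2, Slc2a4, Phka1, Phkg1, Acads and Tspan8 lie higher.

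Single genes outside these groups held some of the largest changes. Tspan8, a tetraspanin of the cell surface, had the largest rise of a named gene: 64.7, 87.1 and 157 in the earlier window, then 492 and 424 at 16 d and 705 and 589 at 20 d (5.88-fold, 2.55, SE 0.27, adjusted p = 0.00046), with 1252 in untreated muscle. Since 1 or more earlier arrays were at the floor, the fold is at least that. Tlcd4 rose from 202.5, 285 and 497 to 1354, 826, 1125 and 816 (1.75, SE 0.27, adjusted p = 0.0032). Degs2, an enzyme of sphingolipid synthesis, rose from 74.3, 131 and 231 to 401, 518, 375 and 513 (1.82, SE 0.32, adjusted p = 0.006), above the 267 of untreated muscle. Gpcpd1, a phosphodiesterase of membrane lipid breakdown, rose by 1.44 (SE 0.28, adjusted p = 0.0093). Inmt, a methyltransferase, rose by 1.80 (SE 0.41, adjusted p = 0.021), a call lost without either 20 d array (adjusted p = 0.06 and 0.057). Kcnj11, the pore of the potassium channel that closes with ATP, rose by 1.27 (SE 0.31, adjusted p = 0.028), lost without 12 d replicate 2, either 16 d array or 20 d replicate 2 (0.057 to 0.076).

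Among the falls, Agtr2, the type 2 receptor of angiotensin II, was at 262, 414 and 969.9 and then at the floor on all 4 later arrays (-2.89, SE 0.34, adjusted p = 0.00071), at least 7.39-fold lower, and it was at the floor in untreated muscle too. B4galnt1, an enzyme of ganglioside synthesis, fell from 468, 604 and 649 to the floor on 3 arrays and 174.5 on 16 d replicate 2 (-2.81, SE 0.27, adjusted p = 0.00029). Lst1, a leukocyte transcript, fell by 2.61 (SE 0.45, adjusted p = 0.0053), Slfn2 fell by 2.46 (SE 0.42, adjusted p = 0.0053), Csrp2, a LIM domain protein, fell by 2.44 (SE 0.35, adjusted p = 0.002) and Ly9, a receptor of lymphoid and myeloid cells, fell by 2.24 (SE 0.24, adjusted p = 0.00053). Pea15a, a death effector domain protein, fell by 2.84 (SE 0.56, adjusted p = 0.01), from 1732, 2039 and 2881 to 187, 162 and 153, but 20 d replicate 2 stood at 1622, and without both 16 d arrays its adjusted p was 0.083. Some of the largest changes belonged to probe sets with no gene symbol here: 97519_at fell by 3.36 (SE 0.33, adjusted p = 0.00029), and 100324_g_at, 100323_at and 101489_at rose by 2.68, 2.45 and 2.41 (adjusted p = 0.0018, 0.00046 and 0.00022).

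For the lists of other cells of a muscle that follow, the share of all genes that passed was 11.2%. Of 25 genes of endothelium and vessel wall 2 rose and 1 fell (median 0.01); Pecam1 differed by 0.71 (SE 0.33, adjusted p = 0.19), Cdh5 by -0.13 (0.57) and Tek by 0.43 (0.14), and the 3 calls, of Eng, Vegfa and Vegfb, were all lost without 16 d replicate 1. Of 16 fibroblast and tendon genes 3 fell (median -0.31), among them Fap, the fibroblast activation protein (-0.84, SE 0.16, adjusted p = 0.0084), and S100a4 (-0.75, SE 0.12, adjusted p = 0.0044), while Pdgfra differed by 0.42 (0.35). Of 15 genes of Schwann cells and nerve Mal and Mbp, proteins of myelin, rose (1.01, SE 0.23, adjusted p = 0.018, and 0.67, SE 0.14, adjusted p = 0.013) and Egr2, which activates myelin genes but is also an immediate early gene, fell (-1.13, SE 0.2, adjusted p = 0.0066). A second probe set of Mbp differed by -0.25 (SE 0.1, adjusted p = 0.15). It was lower on every later array than on any earlier one, so the probe sets of Mbp disagree. Without either 20 d array the call of Mal was lost (adjusted p up to 0.06). Adipoq, of fat cells, differed by 0.25 (0.25) and Hba-a1, of red cells, by 0.36 (0.28). None of the 12 skin genes or the 9 mast cell genes passed in limma. At an unadjusted p below 0.05 there were 0 and 2 of them, against 2822 of all 10441 probe sets. In the list of clock genes 2 of 17 rose, Tspan8, which is in that list but is no part of the oscillator, and Nr1d1 (0.57, SE 0.15, adjusted p = 0.042), whose call was lost without any 1 of 8 arrays (adjusted p up to 0.11); Arntl, Per1 and Clock differed by 0.09, -0.01 and -0.03. The hour of collection is not in the labels.

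The step between the windows was tested on its own in a fit of all 54 arrays of the version, from 14 d to 16 d. In that step 144 probe sets (1.38%) differed, 19 (0.182%) higher and 125 (1.2%) lower at 16 d, and 121 of the 144 were also called between the windows. These arrays are part of both comparisons. Adam8 fell by 3.92 (SE 0.37, adjusted p = 6.9e-08) within these 2 days, Mmp12 fell by 2.91 (SE 0.4, adjusted p = 8.5e-05), Lgals3 by 2.82 (SE 0.31, adjusted p = 1.4e-06) and Agtr2 by 2.20 (SE 0.21, adjusted p = 6.9e-08). Cd68 fell by 1.44 (SE 0.27, adjusted p = 0.0023), Ctss by 1.65 (SE 0.25, adjusted p = 0.00041), Ccl2 by 1.56 (SE 0.33, adjusted p = 0.0095), Mfap2 by 1.52 (SE 0.27, adjusted p = 0.0015), Dlk1 by 1.80 (SE 0.23, adjusted p = 2.1e-05), Top2a by 1.65 (SE 0.31, adjusted p = 0.0029) and Myh3 by 1.65 (SE 0.39, adjusted p = 0.025). Tspan8 rose by 2.03 (SE 0.51, adjusted p = 0.038). Other members did not pass over the single step on their brightest probe sets. Postn differed by -1.04 (adjusted p = 0.18), Tnc by -0.87 (0.39) and Meg3 by -1.81 (0.17). Phka1 differed by 1.34 (0.077), Phkg1 by 0.79 (0.45), Hk2 by 0.74 (0.12), Slc2a4 by 0.74 (0.64) and Acads by 0.85 (0.077). The other probe set of Meg3 did pass, with a fall of 1.31 (SE 0.34, adjusted p = 0.043).

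Within the windows fewer probe sets differed. Between 16 and 20 d 10 of 10441 (0.0958%) passed, with 784 at an unadjusted p below 0.05. Col18a1, whose product is a collagen of basement membranes, was lower at 20 d by 2.55 (SE 0.36, adjusted p = 0.0009) on 1 of its probe sets, Lipa, the lysosomal lipase, by 1.49 (SE 0.3, adjusted p = 0.035), and Clock by 0.93 (SE 0.19, adjusted p = 0.037). Glul, glutamine synthetase, was higher by 1.47 (SE 0.27, adjusted p = 0.016), and Mt1, a metallothionein, by 1.01 (SE 0.21, adjusted p = 0.037). Among 12, 13 and 14 d 17 probe sets (0.163%) differed in an F test, with 605 at an unadjusted p below 0.05. At 13 d the arrays held high levels of Saa3 (7131 and 7648, against 217 and the floor at 14 d), Lcn2 (997 and 1053, against 129 and the floor) and a probe set of Ighm, 99420_at (899 and 583, against 84.2 and the floor). At 12 d the heat shock gene Hspa1a (9717 and 5374, against 1557 and 1316 at 14 d) and the stress factor Atf3 (6739 and 5389, against 1608 and 1760) were high. Agtr2 was highest at 13 d, at 825 and 969.9, and the falls of Adam8, Mmp12, Lgals3, Myh3 and Dlk1 given above do not rest on a difference among these 3 days that passed this test.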

How the data were processed

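RNA of mouse gastrocnemius was measured on Affymetrix arrays. The authors deposited 1 processed intensity per probe set and array, with no unit named in the labels. From their range the intensities were taken as linear. The software and background method, not given in the sources used here, are unknown. The 2% trimmed mean of each array of this version lay within 0.0108% of 800.5, so the values were used with no further scaling. No counts underlie them, and the number of arrays limits the precision.

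Intensities were raised to a floor of 64.7, the 20th percentile of the median array, and put on the log2 scale. Of 12488 probe sets, 66 controls were left out and 10441 with at least 4 of the 10 arrays above the floor were tested. The platform's annotation gave 1 symbol to 10833 probe sets, several to 396 and none to 1193; a gene is represented by its brightest probe set over the 10 arrays. Where the lower window holds arrays at the floor, a fold is a lower bound.

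The windows were compared with limma 3.58.1 in R 4.3.3, with 1 mean per window and the day as a random block. Variance was moderated, and Benjamini-Hochberg adjustment ran over all probe sets tested, with 0.05 as the threshold. The estimated correlation within a day was -0.0249, so the block did not make the test stricter. With the arrays taken as independent, 991 probe sets passed, against 1051 with the block. With day means, 3 against 2, 140 passed. Single days were compared in a limma fit of all 54 arrays of the version with 1 mean per time point. Values after a mean are SD, and those after a log2 difference are SE. Named genes were the 15 largest rises and 15 largest falls with no overlap between windows, up to 4 called members of each of 41 lists (1207 entries), a fixed set of muscle, matrix, leukocyte and cycle genes, and cell type markers; other members named were chosen after their values were seen. The comparison, members and lists were chosen with earlier results of these data known. Promoters came from RefSeq on GRCm38.p6. The fit was tested on simulated data. Alternatives were other normalizations, floors, filters, moderation, blocks, and arrays or days left out; Gapdh 3' status as a covariate was chosen after seeing the data.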

Additional observations from a re-analysis of the deposited data

Results flagged for a closer look

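In 327 sets of values (178 genes, each window where all its arrays lay above the floor), 13 held an array far from the others by Dixon's test, and chance gives about 1 in 20. Of the 13, 4 were on arrays low in the Gapdh 3' probe set; the part of this in these values was not tested. In the later window, Pea15a stood at 1622 on 20 d replicate 2 with the next array at 187.3, and Scx, a tendon factor, at 149.5 on the same array with the next at 2277; this array is low in Gapdh 3'. On 20 d replicate 1, Id2 was low at 616.1 (next 884.2), Plagl1 at 88.78 (next 189.2), Cd79a at 194.6 (next 619.8) and Ighm at 2393 (next 2621). On 16 d replicate 2, Ckb was high at 2688 (next 2429) and Hmox1 at 2456 (next 2038). In the earlier window, Sgca was high at 5617 on 14 d replicate 1 (next 4013). On 12 d replicate 1, Plaur was low at 121.1 (next 293.7) and Cks2 at 80.41 (next 248.7). On 12 d replicate 2, which is low in Gapdh 3', Mest was high at 4666 (next 2312) and Mbp at 1168 (next 957.1). The calls of Id2, Plagl1, Ckb, Hmox1, Plaur, Mest, Mbp, Sgca and Pea15a were kept with any 1 of the 10 arrays left out; that of Pea15a was lost without both 16 d arrays (adjusted p = 0.083). That of Cks2 was kept without 12 d replicate 1 or 16 d replicate 1 and lost without any 1 of the other 8 (adjusted p 0.054 to 0.12).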

How the results depend on the processing

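Of the 139 named genes called, all kept their direction in each alternative that could be run. The number that still passed ran from 14 (without the 4 arrays low in Gapdh 3') to 138. In the fit of all 54 arrays it was 127. Every alternative used arrays that had chosen these genes, so a kept direction is no independent check. Counts of called probe sets (1051, with 390 higher and 661 lower) depended on the design. A required change of at least 1.5-fold left 71 (5 higher, 66 lower), day means, 3 against 2, left 140 (23 and 117), and the number in the code as replicate block left 361 (71 and 290), 334 of them shared. Without the 4 arrays low in Gapdh 3', 50 passed (14 and 36); with that status as a covariate, chosen after seeing the data, 848 did. Without 12 d 528 passed (147 and 381), without 13 d 405 (103 and 302), without 14 d 1461 (645 higher), without 16 d 632 (181 higher) and without 20 d 442 (123 and 319). With 1 array left out, 604 to 1251 passed, 184 to 503 higher and 420 to 748 lower, the fewest without 20 d replicate 1. Between 20 and 16 d, no filter gave 16 in place of 10. The meaning of the codes is not stated: all 6 earlier arrays carry the number 1, so this block sets them against the 2 later arrays numbered 1, and it is no pairing of samples by any label; the cause of the differences between settings was not tested. The share higher was 37.1%, and between 34.2% and 40.4% under other normalizations and floors.

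Directions turned for 13 genes, none of which passed in any setting but Cd79a, whose adjusted p was 0.019 without 20 d replicate 1 and 0.045 without 20 d. In the replicate block fit, values were -0.04 (Myf6), -0.37 (Myh4), 0.06 (Cd3e), -0.04 (Cd79a), 0.19 (Cd79b) and 0.20 (Alas2), and in the block of code letters 0.02 (Myh1) and -0.09 (Myh4). Quantile normalization gave -0.23 for Myh4. Without the arrays low in Gapdh 3', values were -0.02 (Myf6), -0.05 (Elane), 0.01 (Cd3e) and 1.32 (Acta1), and with the covariate 0.04 (Myh1) and 0.19 (Acta1). Without 12 d they were -0.03 (Myh4) and 0.30 (Krt1); without 13 d -0.13 (Myf6), 0.01 (Myh1), 0.06 (Cd3e), 0.09 (Alas2), 0.11 (Krt1) and 0.01 (Acta1); without 14 d -0.35 (Elane), -0.05 (Cd3d) and 0.01 (Alas2). Without 16 d they were 0.11 (Myh1), 0.13 (Alas2) and 0.36 (Krt1), and without 20 d -0.05 (Myf6), -0.35 (Myh4), -0.22 (Myh7), 0.00 (Cd3e), -0.29 (Cd3d), 0.10 (Cd79b) and -0.13 (Cpa3). With 1 array left out, values ran from -0.07 to 0.22 (Myf6), -0.14 to 0.09 (Myh1), -0.31 to 0.58 (Myh4), -0.14 to 0.20 (Elane), -0.09 to 0.04 (Cd3e), -0.15 to 0.23 (Cd3d), -0.56 to 0.05 (Cd79b), -0.15 to 0.11 (Alas2), -0.52 to 0.24 (Krt1) and -1.08 to 0.54 (Acta1).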
